A study of Mus musculus with 2 samples.

Results

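*Soat1* and 5 other genes of cholesterol ester and lipid droplet metabolism were followed in single cell RNA sequencing of mouse islets. The 6 genes, *Soat1*, *Nceh1*, *Plin2*, *Plin3*, *Dgat1* and *Dgat2*, were taken by symbol out of 31053 genes counted, and *Soat1* was chosen by its higher UMI count in *Npc1*-/- β cells of these same libraries. Its difference between the libraries in β cells is therefore a description of the choice and is given without a test. The data came from islets of mice aged 2 weeks, and 3 female mice of a genotype were pooled for its library, 1 WT and 1 *Npc1*-/-. The knockout was carried in the germline on a C57BL/6J background, and both genotypes came from matings of heterozygotes. With 1 library per genotype no test between genotypes is possible. The 95% intervals given here hold counting error alone and say nothing of how mice differ, or how the cells of a class differ.

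Cholesterol that enters a cell with lipoproteins leaves the lysosome through NPC2 and NPC1. In the endoplasmic reticulum SOAT1 joins surplus cholesterol to a fatty acid, and the ester is stored in lipid droplets. NCEH1 is a hydrolase that splits the ester again, PLIN2 and PLIN3 coat the droplets, and DGAT1 and DGAT2 carry out the last step of triglyceride synthesis, which fills the same droplets.

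The positions of the genes were taken from the GENCODE M21 annotation of GRCm38, matched by Ensembl identifier. *Soat1* (ENSMUSG00000026600) lies on the minus strand at chr1:156424525-156474331 and *Nceh1* (ENSMUSG00000027698) on the plus strand at chr3:27182965-27284608. *Plin2* (ENSMUSG00000028494) lies at chr4:86648386-86670060, *Plin3* (ENSMUSG00000024197) at chr17:56277476-56292873, *Dgat1* (ENSMUSG00000022555) at chr15:76502015-76511953 and *Dgat2* (ENSMUSG00000030747) at chr7:99153658-99182719, all on the minus strand. Gm37191 overlaps *Nceh1* on the same strand and Gm37648 overlaps *Soat1* on the opposite strand, and reads of these overlaps were not separated here.

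RefSeq promoters (GRCm38.p6) were found for *Soat1*, *Nceh1*, *Plin2* and *Plin3*. The 250 bases before the start site are printed for *Soat1* and *Plin3*, the members that stood higher in *Npc1*-/- β cells, and for *Plin2*, the droplet coat gene that did not. Capitals mark a CCAAT box (CCAAT) or a GC box (GGGCGG) on either strand, and 2 of the GC boxes of *Plin3* overlap. The regions are chr1:156474329-156474578, chr17:56290512-56290761 and chr4:86670060-86670309, in the order printed, each read 5′ to 3′ on the minus strand. The *Plin3* start used by RefSeq lies inside the span that GENCODE gives the gene.
Soat1: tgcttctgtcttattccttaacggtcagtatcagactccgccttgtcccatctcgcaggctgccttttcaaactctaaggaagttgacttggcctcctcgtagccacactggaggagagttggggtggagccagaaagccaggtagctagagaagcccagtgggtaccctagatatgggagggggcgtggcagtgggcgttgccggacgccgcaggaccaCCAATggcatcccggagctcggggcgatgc
Plin3: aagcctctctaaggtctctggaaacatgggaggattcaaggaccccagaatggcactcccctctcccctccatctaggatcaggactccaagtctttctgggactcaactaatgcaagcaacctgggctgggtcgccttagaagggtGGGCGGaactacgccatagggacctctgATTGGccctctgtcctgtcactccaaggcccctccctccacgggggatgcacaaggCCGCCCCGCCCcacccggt
Plin2: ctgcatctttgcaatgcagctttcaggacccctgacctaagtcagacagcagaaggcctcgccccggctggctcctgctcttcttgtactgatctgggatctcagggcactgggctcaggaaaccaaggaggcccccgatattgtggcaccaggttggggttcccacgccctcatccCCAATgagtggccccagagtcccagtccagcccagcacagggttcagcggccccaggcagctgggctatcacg

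A CCAAT box was found in all 4 promoters, from 30 bases before the start site in *Soat1* to 75 in *Plin3*, and in 33.8% of the 32851 promoters in the table. *Plin3* held 3 GC boxes, 103, 19 and 14 bases before its start, against 32.7% of promoters with any, and none was found in the other 3. An E-box (CACGTG) was found in *Nceh1* alone, 26 bases before the start, and in 6.02% of promoters. The letters of the sterol regulatory element searched (TCACNCCAC) were in none of the 4 windows and in 1.05% of promoters. These matches describe letters and not binding.

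The libraries held 8569 barcodes for WT and 7646 for *Npc1*-/-, and 4628 and 4269 passed the study's limits on genes, UMIs, mitochondrial and haemoglobin share, with a median of 18905 and 21381 UMIs. The UMI, a molecular tag that counts transcripts, was summed per library and cell class and given as CPM, the UMIs of a gene per 1000000 UMIs of that sum. *Npc1* was found at 8.40 CPM in the WT library and at 4.14 CPM in the *Npc1*-/- library, and the 3′ tags counted need not come from the deleted part. The libraries shared 12 barcodes, of which 3 were kept in both. Scrublet, a doublet caller, marked 0.605% of the WT and 0% of the *Npc1*-/- barcodes by its own threshold, so no doublets were removed from the sums below.

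Barcodes were classed by their leading hormone or by marker genes, which gave 1833 WT and 1826 *Npc1*-/- β cells, 1048 and 857 α cells, 189 and 141 δ cells, and 411 and 442 PP cells. Classed by markers were 430 and 434 endothelial, 233 and 250 stellate, 62 and 66 mesenchymal cells and 54 and 33 macrophages. Insulin made up 51.9% of the UMIs of WT β cells and 49.3% in *Npc1*-/-. The PP class, led by *Ppy* and *Pyy*, held 88 WT and 100 *Npc1*-/- barcodes with *Sst* at 10% of UMIs or more, and *Ppy* and *Pyy* made up 11.1% and 11.8% of the UMIs of the δ class. A barcode rich in both went to the class of its larger hormone.

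*Soat1* was higher in the *Npc1*-/- library in β, PP and α cells. In β cells, 712 UMIs gave 13.0 CPM (12.06 to 13.98) in WT, and 1589 UMIs gave 29.3 CPM (27.9 to 30.8) in *Npc1*-/-. The ratio of the libraries was set against the median gene of the class, and on this log2 scale *Soat1* stood at 1.06 (0.93 to 1.19). Of 8858 β cell genes past the filter on low counts, which asked for 5 CPM in a library and 50 UMIs over both, 11 had a higher ratio. PP cells, an endocrine type that secretes pancreatic polypeptide, gave 10.4 CPM (8.33 to 12.9) in WT and 23.4 CPM (20.4 to 26.7) in *Npc1*-/-, a log2 ratio of 1.10 (0.74 to 1.48). Within this PP class the β cell marker list other than insulin summed to 11493 CPM in WT and 19059 CPM in *Npc1*-/-. That list is not particular to β cells, and in δ cells it summed to 23427 and 26402 CPM. Insulin made up 1.24% and 1.41% of the UMIs of the PP class, and stellate markers summed to 12.1 and 47.3 CPM in it. The part of these values in the *Soat1* ratio was not tested. α cells gave 11.3 CPM (9.82 to 12.9) and 19.2 CPM (17.1 to 21.4), a log2 ratio of 0.73 (0.48 to 0.99). In these 3 classes the counting intervals of the libraries did not overlap.

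In the other classes the intervals of the libraries overlapped. *Soat1* was at 16.6 CPM in the WT and at 15.2 CPM in the *Npc1*-/- δ cells, with a log2 ratio of -0.13 (-0.80 to 0.53). Endothelial cells gave 16.3 and 18.3 CPM, with a log2 ratio of 0.15 (-0.31 to 0.61). Stellate cells gave 17.3 and 14.7 CPM, with a log2 ratio of -0.23 (-1.07 to 0.60). This class was called by *Rgs5*, *Acta2*, *Pdgfrb* and other markers that do not separate stellate cells from pericytes. In CPM with hormone UMIs counted in the total, macrophages had the highest *Soat1* level of the 8 classes in both libraries. They gave 59.4 CPM in WT and 56.6 CPM in *Npc1*-/-, with a log2 ratio of -0.09 (-0.82 to 0.62). Mesenchymal cells held 19 UMIs in each library, under the filter on low counts, at 28.7 and 29.5 CPM.

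**Figure D1:**
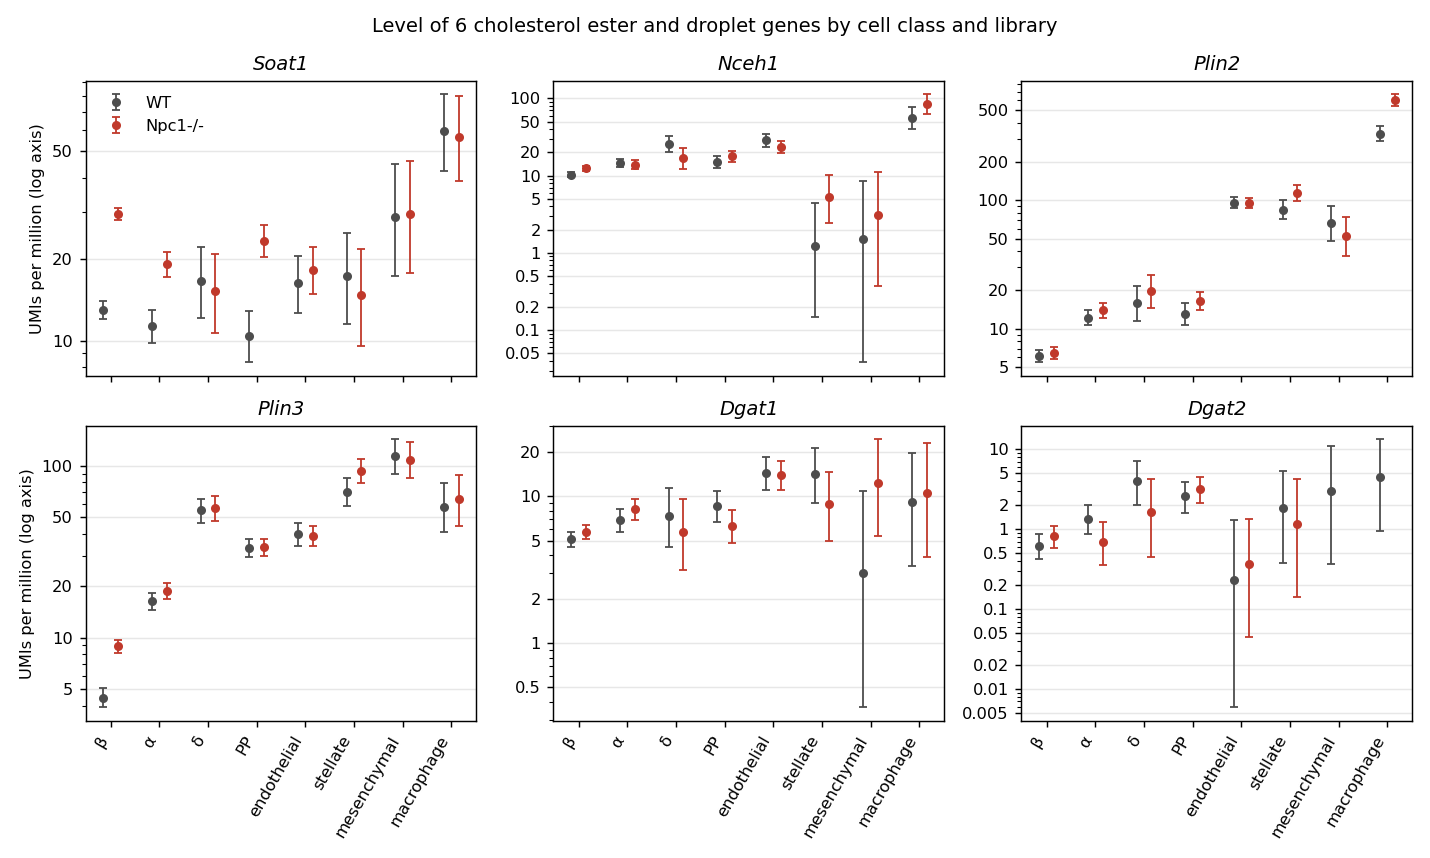
Level of each of the 6 genes, in CPM on a log axis, by cell class, with WT in grey and *Npc1*-/- in red; points are sums over the cells of a class and bars are 95% Poisson intervals, and a level of 0 is not drawn. *Soat1* in β cells was at 13.0 CPM in the WT and at 29.3 CPM in the *Npc1*-/- library, and *Plin2* in macrophages at 329 and 598 CPM.

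The order of the classes by *Soat1* level differed between the libraries. In WT, macrophages led and PP cells came last, and every neighbouring pair in the order had overlapping intervals. In *Npc1*-/-, β cells came after macrophages and mesenchymal cells at 29.3 CPM, and their interval lay above that of PP cells at 23.4 CPM, the next in the order. The level of β cells in *Npc1*-/- is the value that *Soat1* was chosen by, so this place in the order is a description. CPM counts the hormone UMIs of a class in its total, which lowers the CPM of other genes in endocrine classes. In WT, insulin made up 51.9% of the UMIs of β cells, *Gcg* 30.6% in α cells, and *Ppy* and *Pyy* 35.5% in PP cells. In WT endothelial cells insulin made up 1.63%. In *Npc1*-/-, insulin made up 49.3% of the UMIs of β cells and 0.68% in macrophages. The places of the endocrine classes in this order are those of CPM with hormone UMIs counted, and can differ without them. The order of the classes without hormone UMIs was not tested.

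A larger share of β cells had a *Soat1* UMI in the *Npc1*-/- library. The mean was 0.388 UMIs per β cell in WT and 0.870 in *Npc1*-/-, and 3 or more UMIs were found in 1.75% and 8.32% of cells. The share of β cells with any *Soat1* UMI was 29.6% and 51.4%, at medians of 30417 and 30094 UMIs per cell. With each cell thinned to 5000 UMIs, leaving out 26 and 22 shallower cells, the shares were 6.20% (5.13 to 7.41) and 13.2% (11.7 to 14.9). Thinned endothelial cells gave 7.57% and 7.21%, from unthinned shares of 14.7% and 18.7% at medians of 7668 and 10266 UMIs, and no class was without *Soat1* UMIs, so a background from free RNA was not measured for this gene. *Soat2*, the esterifying enzyme of liver and intestine, had 1 UMI in WT and 0 in *Npc1*-/- β cells, and a count of 0 allows up to 0.0681 CPM.

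**Figure D2:**
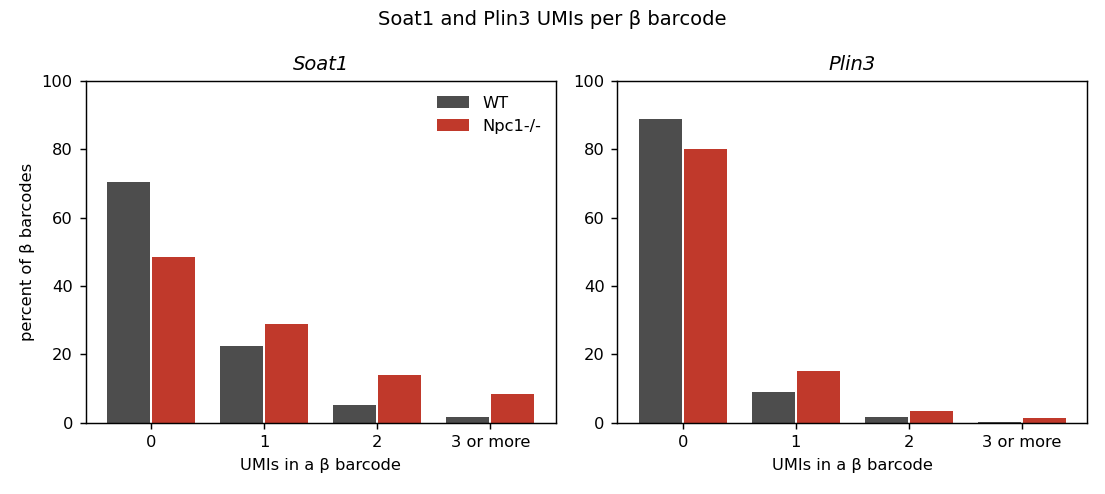
Share of β cells, in percent, with 0, 1, 2 or at least 3 UMIs of *Soat1* or *Plin3*, with WT in grey and *Npc1*-/- in red. Cells with no *Soat1* UMI made up 70.4% in WT and 48.6% in *Npc1*-/-, and for *Plin3* 88.9% and 80.2%.

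The *Soat1* log2 ratio was above 0 in each set when β cells were divided by *Ppy* and *Pyy*, *Ucn3*, insulin share or depth. The sets divide the same UMIs that *Soat1* was chosen by, so their ratios are a description and no separate evidence. β cells with *Ppy* and *Pyy* at 1% of UMIs or more, hormones that mature β cells hold little of, made up 26.8% of WT and 45.0% of *Npc1*-/- β cells. In them *Soat1* was at 17.8 CPM in the WT and at 35.5 CPM in the *Npc1*-/- library, a log2 ratio of 0.90 (0.69 to 1.11). In the β cells under 1%, it stood at 11.4 and 24.8 CPM, a log2 ratio of 1.04 (0.87 to 1.21). In CPM, *Soat1* was thus higher in the cells with more *Ppy* and *Pyy* within each library, and higher in *Npc1*-/- within each kind of cell. CPM counts insulin UMIs in the total, and the part of the insulin share in differences between sets of 1 library was not tested. Cells with under 100 CPM of *Ucn3*, a gene of mature β cells, gave 16.2 and 34.5 CPM, and those at 100 or more gave 11.6 and 24.6 CPM, with log2 ratio intervals of 0.80 to 1.20 and 0.83 to 1.18. Across 4 ranges of the insulin share the log2 ratio lay between 0.71 and 1.21, and across 5 ranges of depth between 0.90 and 1.16. The shallowest of these ranges rested on 10 WT and 24 *Npc1*-/- UMIs of *Soat1*, and its interval of -0.07 to 2.28 held 0.

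Macrophages had a higher CPM of *Soat1* than β cells, and their markers were read in β cells. The 9 markers summed to 28.0 CPM in WT and 44.1 CPM in *Npc1*-/- β cells, of which *C1qa* alone made up 26.5 and 42.8 CPM. Each of the other 8 was under 0.5 CPM in both libraries, with *Adgre1*, which encodes F4/80, at 0 and 1 UMI. β cells without a UMI of any of the 9 markers gave a *Soat1* log2 ratio of 0.96 (0.78 to 1.15), a selection that rests mostly on *C1qa*, and those without a UMI of the other 8 gave 1.05. β cells with under 500 CPM of *Fos*, *Hspa1a* and *Dnajb1*, genes of the dissociation response, were 1410 of 1833 in WT and 1781 of 1826 in *Npc1*-/-, and gave 1.07 (0.93 to 1.21).

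*Nceh1*, the hydrolase, had a counting interval that held the median gene over all β cells, but not over those low in *Ucn3* or rich in *Ppy* and *Pyy*. It gave 10.3 CPM (9.50 to 11.2) in WT and 12.5 CPM (11.5 to 13.4) in *Npc1*-/- β cells, with a log2 ratio of 0.15 (-0.01 to 0.32). The CPM intervals did not overlap, and the plain ratio of CPM was 1.21 (1.08 to 1.35). The reading of *Nceh1* thus depends on setting the ratio against the median gene. α cells gave 14.6 and 13.9 CPM, and endothelial cells 28.6 and 23.7 CPM, with intervals of the log2 ratio that held 0, as did that of PP cells at 0.19 (-0.15 to 0.54). δ cells gave 70 UMIs or 25.8 CPM in WT and 41 UMIs or 16.9 CPM in *Npc1*-/-, a log2 ratio of -0.61 (-1.21 to -0.04). Macrophages had the highest level, 56.3 CPM in WT and 84.9 CPM in *Npc1*-/-, with a log2 ratio of 0.56 (-0.08 to 1.23). The counting interval held 0 in macrophages and ended just under 0 in δ cells. Within β cells the *Nceh1* log2 ratio was 0.46 (0.19 to 0.74) with *Ucn3* under 100 CPM and -0.03 (-0.25 to 0.18) with more. It was 0.42 (0.12 to 0.73) with *Ppy* and *Pyy* at 1% or more and 0.07 (-0.14 to 0.27) with less.

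*Plin3*, which coats nascent droplets and is also found in the cytosol, was the second member that was higher in *Npc1*-/- β cells. It had 245 UMIs, or 4.47 CPM (3.93 to 5.07), in WT and 482 UMIs, or 8.90 CPM (8.12 to 9.73), in *Npc1*-/-, a log2 ratio of 0.87 (0.65 to 1.10), and 26 genes had a higher one. *Plin3* passed the filter of 5 CPM by its *Npc1*-/- level alone, so this rank rests in part on the filter. β cells had the lowest *Plin3* level of the 8 classes in both libraries. α cells gave 16.3 and 18.7 CPM, with a log2 ratio of 0.17 (-0.06 to 0.40), and PP cells 33.2 and 33.5 CPM, with -0.05 (-0.29 to 0.19). Stellate cells gave 70.4 and 93.8 CPM, with 0.41 (0.05 to 0.77). In PP cells, where the *Soat1* log2 ratio was 1.10, the interval of *Plin3* held 0.

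The *Plin3* ratio also varied within β cells. β cells with *Ppy* and *Pyy* under 1% gave 3.14 CPM in WT and 7.34 CPM in *Npc1*-/-, a log2 ratio of 1.14 (0.83 to 1.46). Those at 1% or more gave 8.49 and 11.1 CPM, a log2 ratio of 0.28 (-0.04 to 0.61). The ratio was thus larger in the cells with little *Ppy* and *Pyy*, and the 2 intervals did not overlap. With *Ucn3* at 100 CPM or more the log2 ratio was 1.03 (0.71 to 1.35), and with less it was 0.55 (0.23 to 0.89).

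**Figure D3:**
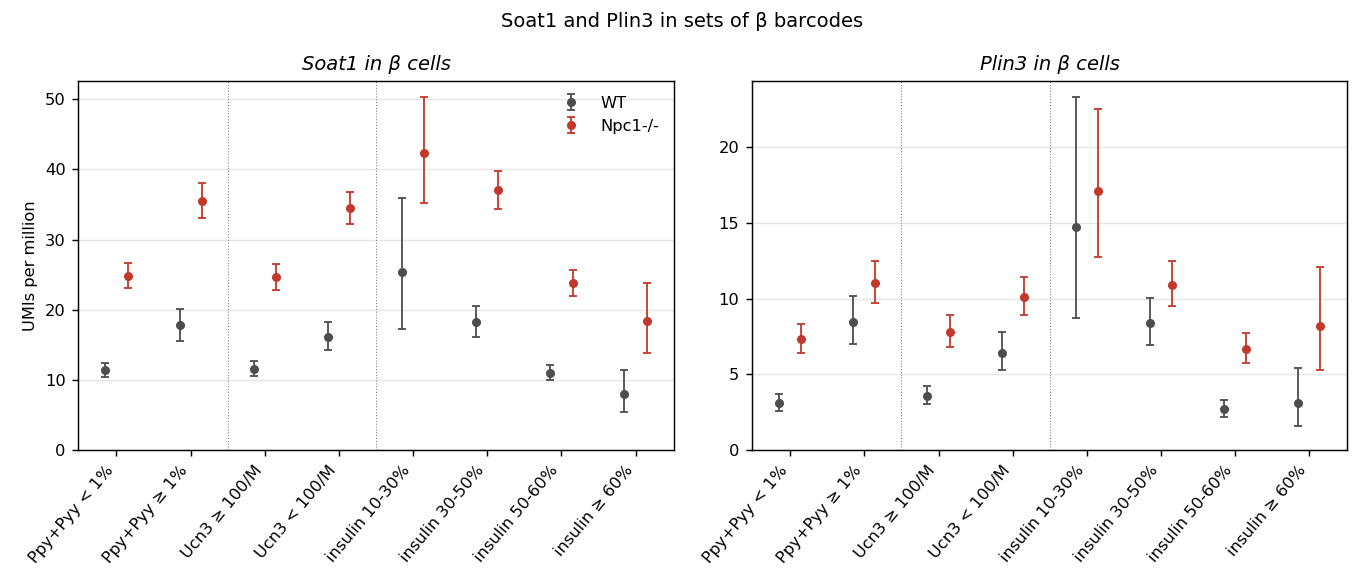
*Soat1* and *Plin3* level, in CPM, in β cells divided by *Ppy* plus *Pyy*, by *Ucn3* and by insulin share of UMIs, with WT in grey and *Npc1*-/- in red and 95% Poisson intervals as bars. *Soat1* is higher in *Npc1*-/- in each set, from 18.3 CPM against 8.05 CPM at the highest insulin share to 42.3 CPM against 25.4 CPM at the lowest, where alone its intervals overlap, while those of *Plin3* overlap at 3 of the 4 insulin shares, all but 50 to 60%, and at *Ppy* plus *Pyy* of 1% or more.

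*Plin2*, the droplet coat protein that accumulates with stored lipid, was at close levels in the β cells of both libraries and higher in *Npc1*-/- macrophages. It gave 6.11 CPM (5.48 to 6.81) in WT and 6.50 CPM (5.84 to 7.22) in *Npc1*-/- β cells, with a log2 ratio of -0.03 (-0.25 to 0.19). In macrophages, 216 UMIs gave 329 CPM (286 to 376) in WT, and 338 UMIs gave 598 CPM (536 to 665) in *Npc1*-/-, a log2 ratio of 0.84 (0.59 to 1.09). Stellate cells gave 84.6 and 114 CPM, with 0.43 (0.11 to 0.76), and endothelial cells 95.4 and 95.6 CPM, with -0.01 (-0.20 to 0.18). *Plin2* was highest in macrophages and lowest in β cells in both libraries. The excess of the macrophage ratio was 0.87 (0.54 to 1.19) over β cells and 0.85 (0.54 to 1.16) over endothelial cells, and 0.53 (-0.11 to 1.17) over δ cells. It was smallest over stellate cells, at 0.41 (0.007 to 0.81). Of 3094 macrophage genes past the filter, 127 had a higher log2 ratio than *Plin2*.

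The macrophages were few, and other genes differed with *Plin2*. The median depth was 11544 UMIs in the 54 WT and 16941 UMIs in the 33 *Npc1*-/- macrophages. The 9 markers that defined the class summed to 18889 CPM in WT and 27976 CPM in *Npc1*-/-, endothelial markers to 13.7 and 234 CPM, and stellate markers to 12.2 and 184 CPM. The part of these values in the *Plin2* ratio was not tested. With the barcodes of highest doublet score removed, the *Plin2* log2 ratio in macrophages was 0.82, and that of *Soat1* in β cells was 1.10. This step left 51 of the 54 WT and all 33 *Npc1*-/- macrophages. It removed none of the latter, so doublets among them were not tested. Thinned to 5000 UMIs per cell, *Plin2* had a UMI in 73.9% (58.9 to 85.7) of 46 WT and 97.0% (84.2 to 99.9) of 33 *Npc1*-/- macrophages. Its log2 ratio at this equal depth was 0.54, below the counting interval of 0.59 to 1.09 without thinning. The thinned value came from 1 random draw that left out 8 WT cells, and its own counting error was not measured. The mean over cells of CPM gave 0.88.

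*Dgat1* had its highest WT levels in endothelial cells, at 14.4 CPM against 14.0 CPM in *Npc1*-/-, and in stellate cells, at 14.2 CPM (23 UMIs) against 8.85 CPM (15 UMIs), and *Dgat2* had few UMIs in every class. *Dgat1* gave 5.09 CPM (4.51 to 5.73) in WT and 5.74 CPM (5.12 to 6.42) in *Npc1*-/- β cells, with a log2 ratio of 0.05 (-0.18 to 0.29). PP cells gave 8.59 and 6.31 CPM, with -0.51 (-1.03 to 0.01), and α cells 6.87 and 8.16 CPM, with 0.22 (-0.14 to 0.58). *Dgat2* stayed under the filter on low counts in every class and reached 4.57 CPM at most, from 3 UMIs in WT macrophages. *Npc1*-/- macrophages had 0 UMIs, which allows up to 6.53 CPM, so a difference was not detectable at this depth.

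**Figure D4:**
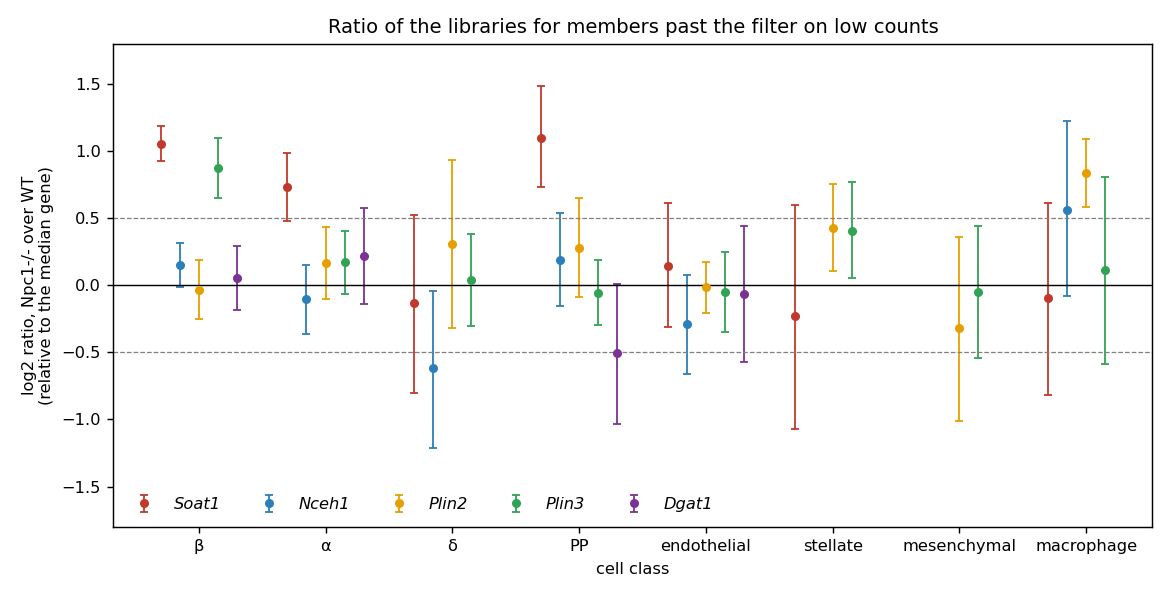
Log2 ratio of *Npc1*-/- over WT relative to the median gene for the members past the filter on low counts, by cell class, with 95% counting intervals as bars and dashed lines at 0.5 above and below the median gene. *Soat1* lies at 1.06 in β, 1.10 in PP and 0.73 in α cells, *Plin3* at 0.87 in β cells and *Plin2* at 0.84 in macrophages.

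The members were counted against all genes of a class, where 0.5 or more on the log2 scale from the median gene was taken as past the fold. In β cells, 2 of the 5 members past the filter were higher and 0 lower, against 2.16% of genes higher and 2.12% lower. The choice of *Soat1* sets this count in part. So does the filter, which *Plin3* passed by its *Npc1*-/- level alone, at 8.90 CPM against 4.47 CPM in WT. α cells had 1 of 5 higher and 0 lower (all genes 1.13% and 1.47%), and PP cells 1 of 5 higher and 1 lower (3.14% and 3.58%). δ cells had 0 of 4 higher and 1 lower (5.21% and 4.71%). In endothelial cells 0 of 5 were past the fold (3.11% and 4.17%), in stellate cells 0 of 3 (4.92% and 5.94%) and in mesenchymal cells 0 of 2 (9.01% and 9.39%). Macrophages had 2 of 4 higher, *Plin2* and *Nceh1*, and 0 lower (12.2% and 12.2%). The background share was highest in macrophages, the class with the fewest cells.

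The other genes of the pathway were read from 10 lists in β cells, where the median over all genes tested is 0 by construction. Of all β cell genes tested, 2.16% were past the fold upward and 2.12% downward. A gene under 5 CPM in WT could pass the filter by its *Npc1*-/- level alone, and its count as higher then rests in part on the filter. *Soat1* and *Nceh1* were the only genes past the filter among 2 of sterol esterification and 6 of cholesterol ester hydrolysis. Of 18 SREBP2 targets, the genes of cholesterol synthesis and uptake, 17 passed the filter, 5 were past the fold upward and 0 downward, and all 17 lay above the median gene, with a median log2 ratio of 0.31. *Hmgcs1*, an early enzyme of cholesterol synthesis, was at 30.1 CPM in the WT and at 47.2 CPM in the *Npc1*-/- library, with 0.53 (0.44 to 0.62). *Idi1* gave 0.57 (0.43 to 0.72) and *Lss*, which makes lanosterol, 0.69 (0.48 to 0.89).

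Among sterol efflux genes and targets of LXR, 1 of 6 was past the fold upward and 0 downward. This was *Abca1*, the exporter of cholesterol to lipoproteins, at 31.4 CPM in WT against 49.3 CPM in *Npc1*-/-, with a log2 ratio of 0.53 (0.44 to 0.62). Of 8 genes of triglyceride synthesis 2 were past the fold upward and 0 downward. These were the phosphatidate phosphatases *Lpin1*, at 6.77 and 12.3 CPM with 0.74 (0.55 to 0.93), and *Lpin2*, named after its values were seen, with 0.63 (0.41 to 0.86). The list of droplet coats had *Plin2* and *Plin3* alone past the filter.

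No gene of droplet assembly was past the fold, of 8, and the median was -0.05, with *Rab18* the most abundant at 58.7 and 54.3 CPM and a log2 ratio of -0.23 (-0.30 to -0.16). None of 3 genes of triglyceride breakdown was, with the lipase gene *Pnpla2* at -0.03 (-0.16 to 0.10). None of 8 sterol transfer genes was, with *Gramd1a* at 0.07 (-0.03 to 0.17). Of 5 genes of lysosomal sterol release 0 were higher and 1 was lower, *Npc1* itself at 5.82 and 2.64 CPM, with a log2 ratio of -1.26 (-1.55 to -0.97), and the lysosomal membrane gene *Lamp1* gave -0.15 (-0.19 to -0.12). In α cells 5 of 17, in PP cells 7 of 17 and in δ cells 8 of 15 SREBP2 targets were past the fold upward and 0 downward, with medians of 0.44, 0.47 and 0.50. The upward share over all genes was 1.13% in α, 3.14% in PP and 5.21% in δ cells. In the same δ cells the *Soat1* log2 ratio was -0.13. In endothelial cells 1 of 15 was past the fold upward, against 3.11% of all genes, with a median of -0.14.

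**Figure D5:**
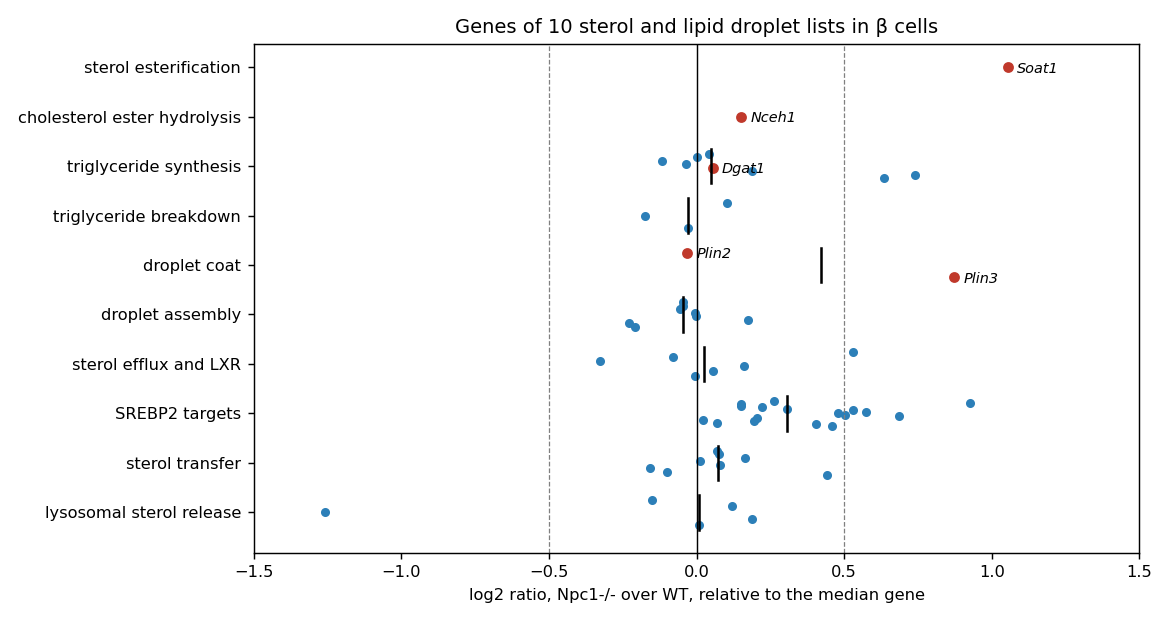
Log2 ratio of *Npc1*-/- over WT relative to the median gene in β cells for the genes of 10 lists past the filter on low counts, with members of the 6 genes in red, other genes in blue and the list's median as a black line. *Soat1* at 1.06 lies farthest to the right, and the 17 SREBP2 targets lie above 0 with a median of 0.31.

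The genes most like *Soat1* and *Plin2* over the 8 classes of both libraries were sought among 9917 genes by Pearson's r of log2(CPM + 1), over 16 sums that share 2 libraries. For *Soat1* they included *Gnpda1* (r = 0.88), *Ftl1* (r = 0.88), *Mapkapk3* (r = 0.88) and *Cyp27a1* (r = 0.87), each highest in macrophages. For *Plin2* they were *Coro1b* (r = 0.996), *Pfn1* (r = 0.99), *Brk1* (r = 0.99), *Arpc4* (r = 0.99) and *Capza2* (r = 0.99), also highest in macrophages. *Gnpda1* was at 9.78 CPM in the WT and at 9.64 CPM in the *Npc1*-/- β cells, where *Soat1* differed. *Soat1* and *Plin2* had r = 0.63 with each other, and *Soat1* and *Plin3* r = 0.32.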

How the data were processed

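Islet cells of 2 pools of mice were sequenced with 10x Genomics 3′ libraries. The deposited files hold UMI counts, not normalized, that the authors obtained with Cell Ranger 3.1.0 on mm10 (submitters' processing notes) for called cells. The study's limits were then applied to barcodes: over 1000 genes, under 50000 UMIs, below 10% mitochondrial UMIs and no more than 0.1% haemoglobin UMIs. Its removal of double cells was not repeated. A class was the leading hormone at 10% of UMIs or more, otherwise the marker list with the highest mean of log1p values, 3 markers found and 1.5 times the next list. The marker limits were set after the hormone classes had been seen. UMIs were summed by class and library, and CPM was computed from the sums with Poisson intervals. Log2 ratios used 0.5 added UMIs and are relative to the median gene among those at 5 CPM or above in a library and 50 UMIs in all, and their intervals are conditional binomial. The ratio step was tested on simulated data.

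Members and lists were chosen with earlier results of these data known. Named genes were the 6 members, *Npc1*, list genes at 10 CPM and 0.5 or more on the log2 scale, otherwise the most abundant of each list, and the 5 genes most like *Soat1* and *Plin2* among genes at 20 CPM. Some genes that this rule names are not reported here. Chosen after values were seen were the class differences, the ranges of depth and insulin share, the motifs and the alternatives so marked below. Python 3.11.15 (scanpy 1.11.5 for Scrublet, scipy 1.17.1, numpy 2.4.6, matplotlib 3.10.9, pandas 2.3.3) and R 4.3.3 (edgeR 4.0.16 for the TMM factor) were used, with seed 42.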

Additional observations from a re-analysis of the deposited data

Results flagged for a closer look

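Insulin-leading barcodes of 50000 UMIs or more were left out of the sums by the filter on UMIs, 153 in WT and 343 in *Npc1*-/-. These barcodes lay outside the main sums but came from the same 2 libraries in which *Soat1* was chosen. Their values are therefore a description and no separate evidence. *Soat1* was at 10.1 CPM in the WT against 29.3 CPM in the *Npc1*-/- library, with a log2 ratio of 1.46 (1.16 to 1.79), and *Plin3* at 4.88 and 9.85 CPM, with 0.93 (0.49 to 1.42). *Dgat1* was at 3.56 and 5.89 CPM, with 0.64 (0.11 to 1.23), where the kept β cells gave 0.05 (-0.18 to 0.29). *Plin2* was lower, at 10.2 and 7.32 CPM, with -0.55 (-0.91 to -0.18). Doublets among such deep barcodes were not removed, and their part in these values was not tested.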

How the results depend on the processing

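The *Soat1* log2 ratio in β cells, 1.06, was above 0 under all 21 alternatives and within its counting interval under 18. All alternatives drew on the libraries in which *Soat1* was chosen, so they are no separate evidence for its rise. It was 0.90 in β cells with *Ppy* and *Pyy* at 1% or more. Among alternatives chosen after seeing the data it was 1.46 in the barcodes of 50000 UMIs or more, and 0.25 (-0.60 to 1.09) in the 82 WT and 60 *Npc1*-/- barcodes with 10% mitochondrial UMIs or more, with 28 and 24 *Soat1* UMIs. The alternatives changed the cell filter, doublet removal by score, the hormone limit, mixed hormones, scaling (plain CPM, TMM factor, no hormone genes), the mean over cells, and depth. *Soat1* stayed above 0 under all 12 in α cells (0.57 to 0.92) and all 13 in PP cells (0.90 to 1.39). *Plin3* in β cells stayed above 0 under all 21, from 0.28 to 1.14. Under 13 alternatives in β cells, *Plin2* lay between -0.21 and 0.24 and *Dgat1* between -0.02 and 0.39. Each left its counting interval under 1 of them, thinning to 5000 UMIs, at 0.24 for *Plin2* and 0.39 for *Dgat1*. These intervals were -0.25 to 0.19 and -0.18 to 0.29. *Plin2* in macrophages stayed above 0 under all 12, from 0.54 to 0.89, and within its counting interval under 11. The value of 0.54, when thinned, lay below that interval, but its own counting error was not measured. Also chosen after seeing the data were all alternatives for *Plin2* in macrophages, the sets of β cells for *Plin3*, PP cells without *Sst*, β cells low in dissociation genes and those without macrophage markers other than *C1qa*. The count of genes past the fold in β cells was 379, and moved to 133 with genes at 20 CPM and to 949 with genes at 1 CPM. No paired analysis was possible because each genotype had 1 library. Leaving out a replicate was not possible for the same reason. Members at low counts, *Dgat2* above all, were limited by depth, and differences between mice could not be measured.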

Other observations

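In macrophages, other sterol genes than the 6 members differed between the libraries, and they are named here after their values were seen. *Apoe*, which encodes an apolipoprotein of cholesterol transport, had 10094 UMIs or 15369 CPM in WT macrophages. In *Npc1*-/- macrophages it had 24583 UMIs or 43500 CPM, a log2 ratio of 1.47 (1.44 to 1.51). This narrow interval is of summed UMIs and leaves out how the 54 WT and 33 *Npc1*-/- cells differ. The exporters *Abca1* and *Abcg1* gave -0.38 (-0.98 to 0.20) and -0.36 (-1.20 to 0.43). Of 5 genes of lysosomal sterol release past the filter, 4 were higher by 0.5 or more and 0 lower, against 12.2% of all macrophage genes in each direction, with *Lamp1* at 0.71 (0.53 to 0.90) and *Npc2* at 0.53 (0.38 to 0.69). In the same 54 WT and 33 *Npc1*-/- macrophages the markers of the class summed to 18889 and 27976 CPM and endothelial markers to 13.7 and 234 CPM, and their part in these ratios was not tested. In PP cells *Apoe* was instead lower, at 60.6 CPM in WT against 21.1 CPM in *Npc1*-/-, a log2 ratio of -1.58 (-1.83 to -1.35). Its log2 ratio was -0.33 (-0.46 to -0.19) in β cells and 0.38 (0.24 to 0.52) in α cells.

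*C1qa* was counted in β cells without its partners. WT β cells held 1452 UMIs of *C1qa* against 18 of *C1qb* and 8 of *C1qc*, and *Npc1*-/- β cells 2320, 18 and 10. In macrophages the counts of *C1qa* and *C1qb* were close, 3175 and 3163 in WT and 4300 and 4318 in *Npc1*-/-. The source of the *C1qa* UMIs in β cells was not tested.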
